A study of Saccharomyces cerevisiae with 4 samples.

Results

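The mitochondrial ATP synthase and the small proteins that restrain it were followed through 10 genes of the budding yeast Saccharomyces cerevisiae. Of these, 7 encode subunits (ATP1, ATP2, ATP3, ATP16, ATP4, ATP5 and ATP7), and 3 encode the inhibitor INH1 and its helpers STF1 and STF2. They were taken by name, each through the probe set that the platform annotation assigns to it, and all 10 were among the 5449 tested genes. Each of the 10 had a single probe set, and 0 of these probe sets carry the mark of a probe set that can bind several transcripts.

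Cultures of BY4741, a haploid laboratory strain with deletions in HIS3, LEU2, MET15 and URA3, were grown in the glucose-rich medium YPD. Treated cultures were exposed for 2 h to 12 µg/mL of honokiol, a biphenol of magnolia trees, and controls received ethanol, its solvent, in equal volume. There were 2 arrays per group, named as biological replicates in the labels, and all 4 cultures carried the same strain deletions and a labelled age of 8 h. Strains of the S288C family, to which BY4741 belongs, also carry a transposon insertion in HAP1, an activator of respiratory genes, which limits them as a model of respiration. Nothing in the labels says whether the replicates were separate cultures beyond the word biological, so p-values measure the spread between these arrays.

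ATP synthase is a rotary machine of the inner mitochondrial membrane. Protons that return through its membrane part turn a central stalk, and the stalk drives ATP synthesis in a catalytic head, while a peripheral stalk holds the head still. When the membrane potential is lost the machine can run backwards and consume ATP. INH1 encodes a small protein that binds the catalytic head and blocks this ATP hydrolysis, and STF1 and STF2 encode factors described as stabilising that inhibition. Yeast growing on glucose ferments and keeps many respiratory genes partly repressed, and the Hap2/3/4/5 complex activates them when glucose runs out.

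Signals are log2 intensities after RMA, and a fold change is a difference of log2 means, honokiol minus ethanol. The background level was log2 4.37, the 95th percentile of the means of probe sets for another species, and all 10 genes lay far above it in both groups, the lowest single value being 10.19. Median log2 intensity was 9.57 to 9.59 on the 4 arrays. The mean log2 ratio of 5' to 3' signal over 7 yeast control transcripts was -1.18 and -1.22 under honokiol and -1.31 and -1.67 under ethanol. Both honokiol arrays thus lay above both ethanol arrays, and ethanol 2 stood apart. Of the genes deleted in BY4741, URA3 lay below background, LEU2 and MET17 (the name of MET15 in the gene table) lay within log2 0.2 of it, and HIS3 gave 10.7 to 11.1. HIS3 is only partly deleted in this strain, so a probe set outside the deleted part checks nothing.

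All 10 genes were lower with honokiol. Each had both honokiol arrays below both ethanol arrays, as had 40.2% of all tested genes, and each passed the limma test at an adjusted p of 0.05, where 25.0% of all tested genes passed as lower. The falls were unequal. INH1 fell to 36.7% of its ethanol signal, while the other 9 genes kept 65.5% to 83.7% of theirs. The median log2 fold change was -0.41 over the 7 subunits and -0.41 over the 10 genes, against 0.01 over all tested genes. A transcript signal per amount of RNA does not tell less mRNA per cell from a changed share of all mRNA. The calls rested on both honokiol arrays: without honokiol 1 or without honokiol 2, 2 of the 10 (ATP3 and INH1) passed, where 4.94% and 4.84% of all tested genes were called lower.

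**Figure D1:**
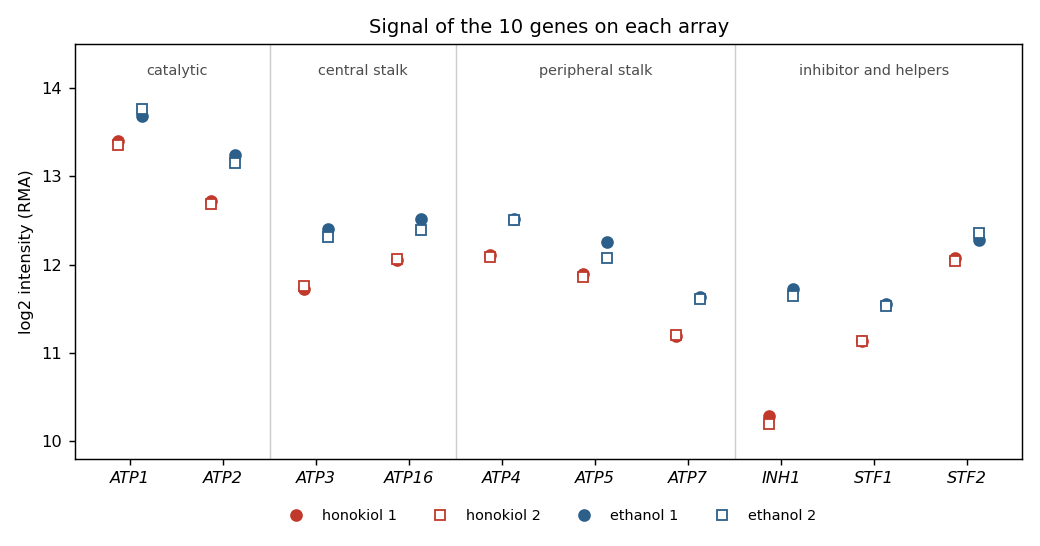
Log2 intensity (vertical axis) of the 10 genes on each of the 4 arrays, grouped by role; red symbols are honokiol arrays, blue symbols ethanol arrays, and squares are replicate 2. For every gene both honokiol values lie below both ethanol values, with the widest gap at INH1; levels of different genes come from different probes and are not to be compared.

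The catalytic head is built of alternating alpha and beta subunits, encoded by ATP1 and ATP2. ATP1 (YBL099W) had log2 intensities of 13.40 and 13.36 with honokiol and 13.69 and 13.76 with ethanol. Its values were thus lower on both honokiol arrays, by 0.34 ± 0.06 on average (SE, n = 2 per group; log2 fold change -0.34, limma adjusted p = 0.0118). ATP2 (YJR121W), whose product carries the catalytic sites, read 12.72 and 12.69 with honokiol against 13.24 and 13.15 with ethanol. ATP2 fell by 0.49 ± 0.06 on the log2 scale (limma adjusted p = 0.00546), to 71.1% of the ethanol signal. In neither gene did the groups overlap. Without honokiol 1 the limma adjusted p was 0.092 for ATP1 and 0.0582 for ATP2, and without honokiol 2 it was 0.103 and 0.0611.

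In the central stalk, which turns inside the head, the gamma subunit is encoded by ATP3 and the delta subunit by ATP16. ATP3 (YBR039W) showed the deepest fall of the 7 subunits, with 11.73 and 11.76 under honokiol and 12.40 and 12.31 under ethanol. It fell by 0.61 ± 0.06 (limma adjusted p = 0.00333), which left 65.5% of the ethanol signal. ATP3 was also the single subunit gene that still passed without honokiol 1 (limma adjusted p = 0.0462) and without honokiol 2 (limma adjusted p = 0.0451). ATP16 (YDL004W) read 12.05 and 12.06 with honokiol, and 12.52 and 12.39 with ethanol. The honokiol pair of ATP16 was almost identical, whereas its ethanol pair was 0.13 apart. ATP16 fell by 0.40 ± 0.07 (limma adjusted p = 0.0112), with limma adjusted p = 0.0943 and 0.0879 without honokiol 1 and honokiol 2.

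The peripheral stalk joins the membrane part to the top of the head. ATP4 encodes its subunit b, ATP7 its subunit d, and ATP5 the subunit called OSCP, which caps the head. ATP4 (YPL078C) had 12.11 and 12.09 with honokiol and 12.51 and 12.50 with ethanol, replicates that differed by 0.01 in each group. ATP7 (YKL016C) had 11.19 and 11.21 against 11.63 and 11.61. ATP4 fell by 0.41 ± 0.06 and ATP7 fell by 0.42 ± 0.06 on the log2 scale (limma adjusted p = 0.00613 and 0.00583), to 75.3% and 74.6% of the ethanol signal. ATP5 (YDR298C) stood closer to the threshold, with 11.89 and 11.86 under honokiol and 12.26 and 12.08 under ethanol. Its ethanol values were the most spread of the 10 genes, 0.19 apart, and ATP5 fell by 0.29 ± 0.08 (limma adjusted p = 0.0397). Of these 3 genes, ATP5 alone lost the call without ethanol 1 (limma adjusted p = 0.0519). Without honokiol 1 the limma adjusted p was 0.069 for ATP4, 0.0704 for ATP7 and 0.172 for ATP5, and without honokiol 2 it was 0.0692, 0.0627 and 0.189.

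INH1 (YDL181W), the inhibitor itself, was in a different range. Its log2 intensities were 10.29 and 10.19 with honokiol and 11.73 and 11.65 with ethanol. The honokiol and ethanol arrays were separated by far more than the 0.10 between the honokiol replicates. INH1 fell by 1.45 ± 0.07 (limma adjusted p = 0.00098; 95% interval -1.63 to -1.27), a 2.73-fold lower signal. That was the 11th largest fall among the 5449 tested genes, and INH1 was the single one of the 10 with a called fall of at least 2-fold, where 0.954% of all tested genes had one. The call held without honokiol 1 (limma adjusted p = 0.0204) and without honokiol 2 (limma adjusted p = 0.0256).

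STF1 and STF2 did not share the size of that fall. STF1 (YDL130W-A) read 11.13 and 11.13 with honokiol and 11.56 and 11.53 with ethanol, and it fell by 0.41 ± 0.06 (limma adjusted p = 0.00606), to 75.1% of the ethanol signal. STF2 (YGR008C), whose product is also known as a hydrophilin that protects dried cells, read 12.08 and 12.04 against 12.28 and 12.36. STF2 fell by 0.26 ± 0.06 (limma adjusted p = 0.0258), the smallest change of the 10 genes, and kept 83.7% of the ethanol signal. Without honokiol 1 the limma adjusted p was 0.0707 for STF1 and 0.147 for STF2, and without honokiol 2 it was 0.0666 and 0.17. STF2 also missed the threshold when the arrays were quantile-normalized again (limma adjusted p = 0.0537), when that 5' to 3' measure entered as a covariate (limma adjusted p = 0.109) and with all probe sets as features (limma adjusted p = 0.0856). TMA10, the paralog of STF2, had a log2 fold change of -0.25 ± 0.10 and did not pass (limma adjusted p = 0.0842). Its log2 fold change was -0.36 without honokiol 1 and -0.14 without honokiol 2, and it passed in neither fit.

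**Figure D2:**
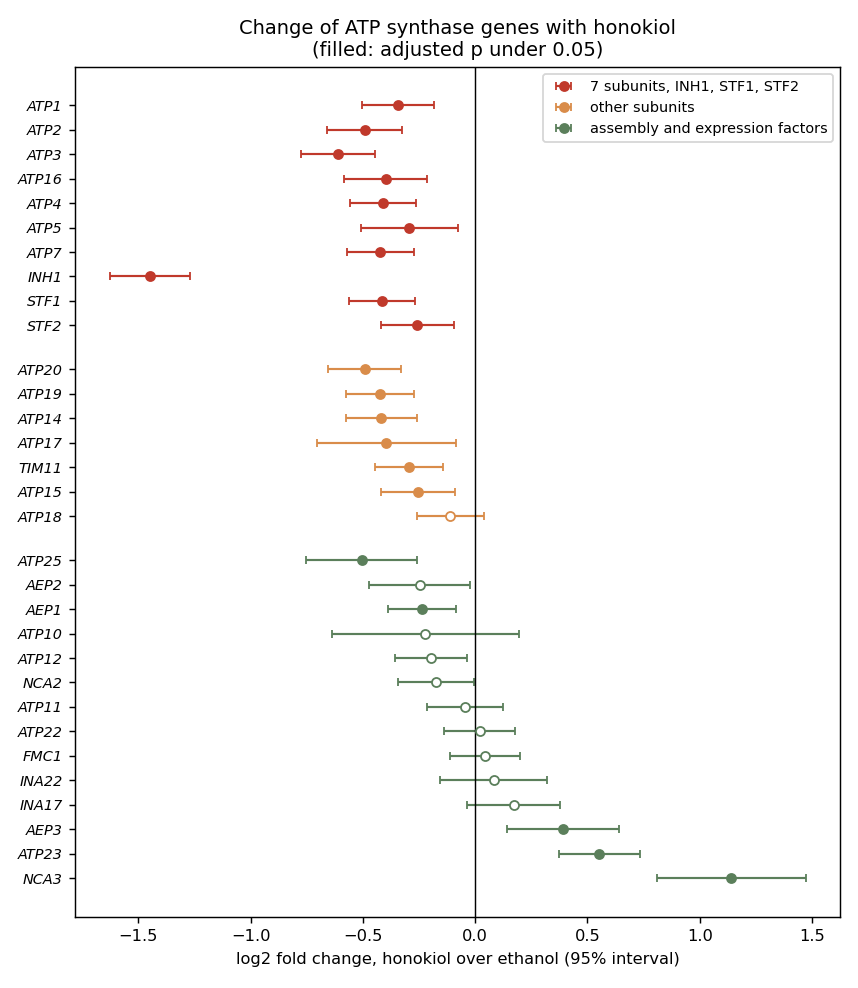
Log2 fold change, honokiol over ethanol, with its 95% interval from the limma fit (2 arrays per group) for the 10 genes, the 7 other measured subunits and 14 assembly and expression factors; filled points passed at an adjusted p of 0.05. All 10 genes lie left of 0 with INH1 farthest at -1.45, the other subunits lie between -0.49 and -0.11, and the assembly factors lie on both sides.

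Whether the subunits changed by another factor than the inhibitor was tested on the differences themselves. For each array the log2 value of INH1 was subtracted from that of every other gene, and limma was fitted to the result over 5448 genes. The fold changes of all 7 subunits lay above that of INH1, by log2 0.84 (ATP3) to 1.15 (ATP5), so that the ratio of subunit to INH1 signal was 1.78-fold to 2.23-fold higher with honokiol than with ethanol. All 7 differences passed (limma adjusted p from 1.19e-08 to 7.87e-07), and so did those of STF1 (log2 1.03) and STF2 (log2 1.19). These small values rest on 16.2 total degrees of freedom, against 4.76 in the fit to the 2 groups. Most of the 16.2 came from the prior over all genes and not from the arrays. In that fit 99.6% of all genes differed from INH1, so the result describes INH1 and sets the subunits apart from it no more than it does other genes. Because the array noise of INH1 enters every such difference, the standard errors of both genes from the fit over all genes were also combined, an alternative added after the data were seen. With them the adjusted p of the 7 subunits lay between 0.000147 and 0.000426, and 99.4% of all genes differed.

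Against the helpers few subunits differed. Set against STF1, 6 of the 7 subunits were not called, with differences from log2 -0.08 to 0.12 and limma adjusted p from 0.212 to 0.95, while 73.3% of all genes differed from STF1. Without ethanol 1, ATP5 passed as different from STF1 (log2 difference 0.20, limma adjusted p = 0.0423). ATP3 had fallen further than STF1 by log2 0.20, written as a difference of -0.20 (limma adjusted p = 0.0352), but not past the threshold with combined standard errors (adjusted p = 0.0941), at which 66.3% of all genes differed. The call was also lost without honokiol 1, honokiol 2 or ethanol 1 (limma adjusted p = 0.215, 0.16 and 0.0689), and with all probe sets as features. The intervals of the 7 differences with combined standard errors together spanned log2 -0.42 to 0.38, so differences of that size are not excluded.

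Set against STF2, ATP3 again was the subunit that differed (log2 difference -0.35, limma adjusted p = 0.0195, and adjusted p = 0.0303 with combined standard errors). This call was lost without honokiol 1 or honokiol 2, where the limma adjusted p was 0.137 and 0.0931. The other 6 subunits had differences between log2 -0.23 (ATP2) and -0.04 (ATP5), none past the threshold (limma adjusted p from 0.0646 to 0.789). Without ethanol 2, ATP2 and ATP16 did pass (limma adjusted p = 0.0149 and 0.0354), and over 15 other settings ATP2 passed in 4 and ATP16 in 2. Among all genes 56.6% differed from STF2 in this fit and 47.0% with combined standard errors. STF1 and STF2 were not called as different from each other (log2 difference of STF1 minus STF2 -0.16, 95% interval -0.35 to 0.04, limma adjusted p = 0.135). Fitted the other way round, on differences from STF1, the adjusted p of STF2 was 0.0906, and it passed in 3 of 15 other settings, among them without ethanol 2 (limma adjusted p = 0.037). INH1 differed from both, by log2 -1.03 from STF1 and -1.19 from STF2 (limma adjusted p = 0.000367 and 0.000667).

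**Figure D3:**
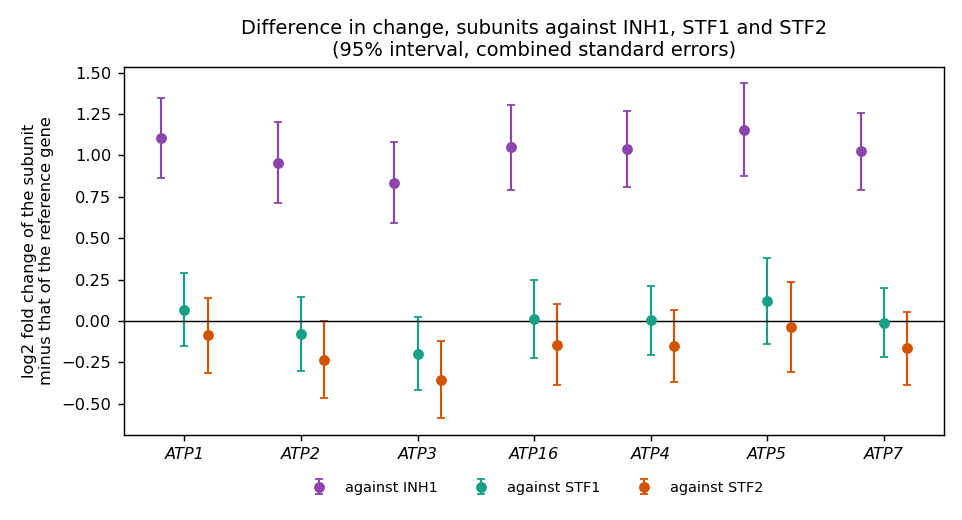
Log2 fold change of each of the 7 subunits minus that of INH1 (purple), STF1 (green) or STF2 (orange), with 95% intervals from combined standard errors (2 arrays per group). Against INH1 every difference lies between 0.84 and 1.15, and against STF1 and STF2 the points lie between -0.35 and 0.12, around or below 0.

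Most of the other nuclear-encoded subunits were lower too. Of 10 further subunits listed, 7 were measured here, and 6 of these were called lower and 0 higher, where 25.0% of all tested genes were called lower and 23.9% higher. The median log2 fold change over the 7 was -0.40. ATP20 and ATP19, which encode subunits g and k of the membrane part, fell, with log2 fold changes of -0.49 ± 0.06 and -0.43 ± 0.06 (limma adjusted p = 0.0051 and 0.00605). ATP14, for subunit h of the peripheral stalk, fell by 0.42 ± 0.06, and ATP17, for subunit f, fell by 0.40 ± 0.12 (limma adjusted p = 0.00689 and 0.0461). The ethanol replicates of ATP17 were spread, at 11.65 and 11.37, and its call was lost without ethanol 1 (limma adjusted p = 0.0636). ATP18, for the small subunit i/j, was the one not called, with 11.25 and 11.21 under honokiol and 11.33 and 11.35 under ethanol (log2 fold change -0.11 ± 0.06, limma adjusted p = 0.17). Without honokiol 1 or honokiol 2, 0 of these 7 genes passed, where 4.94% and 4.84% of all tested genes were called lower. The subunits encoded in mitochondrial DNA (ATP6, ATP8 and OLI1) were not analysed here.

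Factors that assemble the enzyme or help to express its mitochondrially encoded subunits went both ways. Of 14 such genes 2 were called lower and 3 higher, where 25.0% of all tested genes were called lower and 23.9% higher, and the median was -0.01. The largest change was the rise of NCA3, known for a part in expressing the mitochondrial ATP6 and ATP8 genes. Its signal was 10.45 and 10.33 with honokiol and 9.41 and 9.08 with ethanol, a 2.21-fold rise (log2 1.14 ± 0.13, limma adjusted p = 0.00378) that was still called without each array in turn. ATP23, a protease that processes the Atp6 protein, rose 1.47-fold and AEP3, which stabilises the mRNA of ATP6 and ATP8, rose 1.31-fold (limma adjusted p = 0.00503 and 0.0271). ATP25, needed to express and assemble the membrane ring subunit, fell by 0.51 ± 0.09 on the log2 scale (limma adjusted p = 0.0132). Apart from NCA3, no gene of this list kept its call whichever array was left out. The log2 fold change of ATP23 was 0.61 without honokiol 1 and 0.50 without honokiol 2. For AEP3 it was 0.28 and 0.50, and for ATP25 -0.45 and -0.57.

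Carriers that feed the enzyme with ADP and phosphate were also mixed. Of 5 such genes 1 was called lower and 3 higher, where 25.0% of all tested genes were called lower and 23.9% higher. PET9, which encodes the main ADP/ATP carrier of the inner membrane, was lower, with 13.20 and 13.16 under honokiol and 13.55 and 13.43 under ethanol (log2 fold change -0.31 ± 0.07, limma adjusted p = 0.0209). Its minor paralogs rose, AAC1 1.37-fold and AAC3, the form used without oxygen, 1.33-fold (limma adjusted p = 0.015 and 0.008). PIC2, a second phosphate carrier, also rose, with a log2 fold change of 0.22 ± 0.07 (limma adjusted p = 0.0474), and it was not called without any 1 of the 4 arrays. The main phosphate carrier MIR1 had a log2 fold change of -0.30 ± 0.11 and did not pass (limma adjusted p = 0.0809). For MIR1 it was -0.15 without ethanol 1, and -0.44 without ethanol 2, where it passed (limma adjusted p = 0.00761). The carrier calls were lost without honokiol 1 and without honokiol 2. The median log2 fold change of the 5 genes was then 0.17 and 0.28, against 0.22 with all 4 arrays. Of the 5 regulators HAP1 to HAP5, 1 was called lower and 0 higher, near the 25.0% of all tested genes called lower. The 1 was HAP4, the activating subunit of the Hap2/3/4/5 complex. HAP4 had 11.18 and 11.06 with honokiol and 11.59 and 11.77 with ethanol, and it fell by 0.56 ± 0.09 (limma adjusted p = 0.00898; 0.0582 and 0.0739 without honokiol 1 and honokiol 2).

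Beside the respiratory complexes that build the proton gradient, the ATP synthase subunits fell less by median, a difference that was not tested. The bc1 complex and cytochrome c had 11 of 11 genes called lower with a median of -0.65, where 25.0% of all tested genes were. The measured nuclear genes of cytochrome c oxidase had 9 of 9 called lower with a median of -0.52, against -0.41 for the 7 subunits. For the bc1 and cytochrome c genes the median was -0.68 without honokiol 1 and -0.61 without honokiol 2. For the oxidase genes it was -0.59 and -0.46. Fewer genes of both lists were called in these fits. The vacuolar ATPase is the related rotary pump that runs in the other direction, spending ATP to acidify the vacuole. Of its 15 genes 4 were called lower, near the 25.0% of all tested genes, with a median of -0.13. The largest change there was that of VMA13, a regulatory subunit, with a log2 fold change of -0.36 ± 0.08 (limma adjusted p = 0.0226). Without honokiol 1 and honokiol 2 the median of the 15 was -0.16 and -0.14, and the 4 calls were lost.

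**Figure D4:**
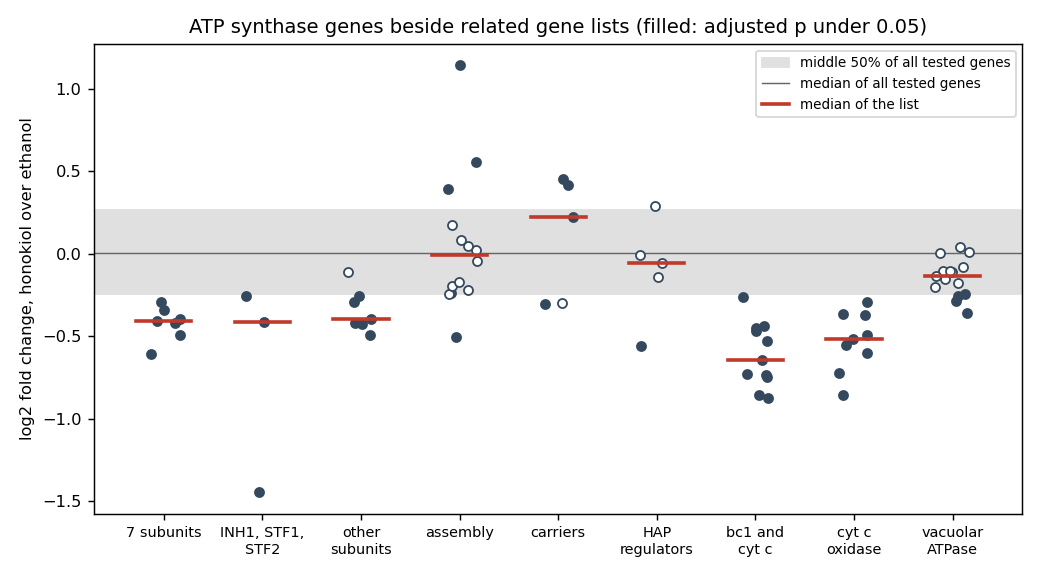
Log2 fold change, honokiol over ethanol, of each gene in 9 groups; red bars are the medians, filled points passed at an adjusted p of 0.05, and the grey band holds the middle 50% of all tested genes. The 7 subunits (median -0.41) lie below the band, the bc1 and cytochrome c genes reach lower (median -0.65), and the vacuolar ATPase genes (median -0.13) lie mostly within it.

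The genes whose pattern lay nearest to INH1, by distance over the 4 arrays between log2 values centred on the ethanol mean, were RTN2, HSP31, ISF1, PDR12 and USB1. RTN2 encodes a reticulon of the endoplasmic reticulum and was nearest at a distance of log2 0.07, with 9.60 and 9.56 under honokiol and 11.02 and 10.96 under ethanol. HSP31, a stress-induced chaperone and glyoxalase, followed at 0.11 and PDR12, an efflux pump for weak acids, stood at 0.21. With 2 arrays per group such a distance mostly reflects the size of the fall. None of the 9 other genes of the ATP synthase set was among these 5.

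Fold changes differed with the length of the coding sequence on these arrays, and the part of length in the results was not tested. Over all tested genes the median log2 fold change was 0.14 among the 1366 genes with the shortest coding sequences (up to 756 bases) and -0.17 among the 1361 with the longest. INH1, STF1, STF2, ATP16, ATP4, ATP5 and ATP7 belong to these short genes, of which 12.7% were called lower. ATP3 lies among the 1362 genes of 757 to 1236 bases, whose median was 0.04 and of which 19.2% were called lower. ATP1 and ATP2 lie among the 1360 genes of 1238 to 1899 bases, whose median was -0.03 and of which 28.6% were called lower. When the array means of the 5' to 3' control ratio entered as a covariate, 9 of the 10 genes were called lower, all but STF2, where 17.2% of all tested genes were. INH1 then fell by 1.52 (limma adjusted p = 0.003). Both honokiol arrays had a higher ratio than both ethanol arrays, so this fit cannot separate the ratio from the treatment.

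Leaving out a honokiol array moved the calls far more than the sizes. Without honokiol 1 the median log2 fold change of the 10 genes was -0.41 and without honokiol 2 it was -0.41, yet fewer of the 10 passed. In these fits the spread came from the ethanol pair alone, and the cause of the lost calls was not tested. The share of all tested genes called lower was then 4.94% and 4.84%. Without ethanol 1, 9 of 10 passed, where 28.6% of all tested genes were called lower, and without ethanol 2 all 10 passed, where 23.9% were. The honokiol replicates of the 10 genes differed by at most 0.10 and the ethanol replicates by at most 0.19 on the log2 scale. The median log2 fold change of the 10 was -0.40 without ethanol 1 and -0.43 without ethanol 2. Between these fits ATP5 moved most, with -0.20 and -0.39.

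**Figure D5:**
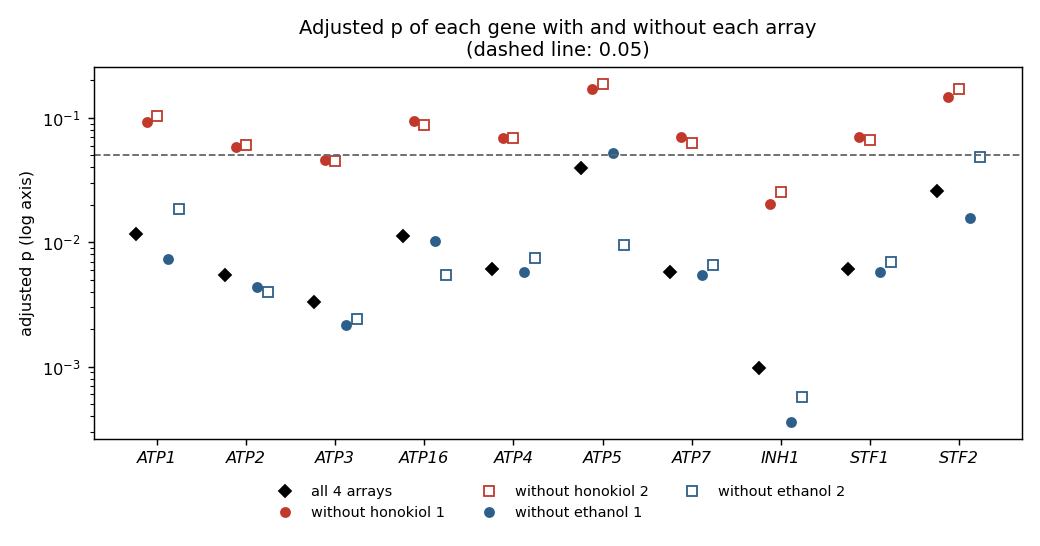
Adjusted p (log axis) from the limma fit for each of the 10 genes with all 4 arrays (black diamonds) and with each array left out in turn; the dashed line marks 0.05. Leaving out either honokiol array (red) lifts 8 of the 10 genes above the line, and ATP3 and INH1 stay below it under all 5 settings shown.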

How the data were processed

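The authors deposited 1 intensity per probe set and array on a linear scale, which came from RMA, per the submitters' processing notes (its version not given in the sources used here). RMA corrects background, equalises the arrays by quantiles and summarises the probes and compresses changes of dim probe sets. Here log2 was taken with no pseudocount. Of 10928 probe sets, 5498 name 1 S. cerevisiae gene by the array's annotation, matched to RefSeq genes of assembly R64, and 5449 genes were tested through their brightest probe set. The number of arrays limits the precision.

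Groups came from the sample titles. The 2 groups were compared in limma 3.58.1 and R 4.3.3 (lmFit, eBayes, two-sided, Benjamini-Hochberg over all tested genes, threshold 0.05), with 2 residual and 2.76 prior degrees of freedom. The same kind of fit, with a prior of its own, was run on differences from INH1, STF1 and STF2. For INH1 it had 16.2 total degrees of freedom, against 4.76 in the fit to the 2 groups. In 20 simulations of 5449 genes with 200 changed, the fit to the 2 groups recovered 56.2%, 92.7% and 98.9% of log2 changes of 0.5, 1 and 2. Of its calls 4.89% were false. The simulated noise was independent and drawn from the fitted prior, and 2663 genes passed in the data, so these rates hold for that setting alone. For differences from 1 gene, 4.2% of equal genes were called (at most 11.6% in 1 simulation), and 2.46% with combined standard errors (at most 7.8%).

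The 10 genes and all lists were chosen with earlier results of these data known. Genes named were the 10, up to 4 of each other list with the largest absolute change, the 5 nearest to INH1, and the deleted genes. ATP18 was named after its value was seen. There were 14 alternatives: prior, normalization, centring, a dim filter, features, probe-set choice, shared probe sets, a pseudocount of 16, a replicate block, the 5'/3' covariate and each array left out.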

Additional observations from a re-analysis of the deposited data

How the results depend on the processing

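In all 14 alternatives the 10 log2 fold changes stayed negative, and INH1 and ATP3 passed in every one. INH1 ranged from -1.52 to -1.40 and ATP3 from -0.67 to -0.56. The 10 genes called lower became 9 with quantile normalization again, 9 with the 5'/3' covariate (STF2 lost in both), 8 with all probe sets as features (ATP5 and STF2 lost), and 2 to 10 when 1 array was left out. The cause of these losses was not tested. Over all genes, 2663 passed (1361 lower, 1302 higher). Leaving out 1 array gave 705 to 3190 (264 to 1556 lower, 439 to 1634 higher), and all probe sets but AFFX controls gave 1763 (889 lower) over more features. Genes differing from INH1 numbered 5428 and from STF1 3993, or 10732 and 6573 with all probe sets, again over more features. Genes differing from STF2 numbered 3083, and 1476 to 3702 with 1 array left out.

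With the replicate block, 2809 genes passed and the 10 genes were all called lower (adjusted p of INH1 0.00249). Same-numbered arrays correlated at 0.325 in their deviations over genes, with 2 pairs and no label tying the numbers to a shared day, so they are not taken as pairs. All 7 subunits differed from INH1 under each alternative and with combined standard errors. The difference between ATP3 and STF1 passed in 10 of 15 settings and that between ATP3 and STF2 in 13 of 15. The 10 probe sets are bright, so signal over background does not limit them; 2 arrays per group do.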
